A study of Mus musculus with 6 samples.

Results

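The Toll-like receptors and their adapter Myd88 were followed through 6 RNA-seq libraries of cells labelled cancer-associated dendritic cells. The 10 genes, Tlr1, Tlr2, Tlr3, Tlr4, Tlr6, Tlr7, Tlr8, Tlr9, Tlr13 and Myd88, were taken by symbol from the 27634 symbols of the deposited table, where all 10 were found. The cells came from C57BL/6 mice bearing tumours of ID8-Defb29/Vegf-a, a mouse ovarian cancer line made to express a beta-defensin and the growth factor VEGF-A. All mice were given 100 µg of siRNA in nanocomplexes with rhodamine-labelled polyethylenimine, a polymer that phagocytic cells take up. The treatment days recorded for every library were 32 to 38. The siRNA was a non-targeting one (NT) or one against Satb1, the gene of a protein that organises chromatin, so that the NT controls carried the same tumour and the same kind of complex. In the experiment with high downregulation of Satb1 (the high experiment) there were 2 NT and 2 Satb1 siRNA libraries, and in the experiment with low downregulation (the low experiment) 1 library of each. The sources used here do not give the number, age and sex of the mice, any pooling, or how the cells were sorted.

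Toll-like receptors are membrane proteins that recognise conserved parts of microbes. Tlr1, Tlr2, Tlr4 and Tlr6 act at the cell surface on lipopeptides and lipopolysaccharide, while Tlr3, Tlr7, Tlr8, Tlr9 and Tlr13 sit in endosomes and bind nucleic acids. All of these receptors except Tlr3 signal through the adapter protein Myd88, which recruits Irak kinases and leads to activation of NF-kappaB and interferon regulatory factors. Dendritic cells and macrophages use these pathways to turn on cytokines, costimulatory molecules and antigen presentation.

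Library totals ran from 24553454 to 71272720 counts. The 2 NT repeats differed in 59 of 21413 genes and the 2 Satb1 siRNA repeats in 89 of 21409, hardly beyond counting noise. For that reason a high group is read as 1 sample here, although the test used below counted each of its libraries as a replicate. In the high experiment, errors and p-values therefore compare these libraries and not independent mice. Satb1 went from 18.2 and 16.7 CPM (counts scaled to the library total) under NT to 3.56 and 4.08 CPM under Satb1 siRNA in the high experiment. It was 6.29 CPM in the library labelled low NT and 6.72 CPM in that labelled low Satb1 siRNA, a scaled ratio of 0.835 (95% counting interval 0.670 to 1.04), so a lower Satb1 level was not shown there and directions in the low experiment rest on its labels. In the high libraries the 8 dendritic cell markers ranged, in the first NT library, from Flt3 at 0.959 CPM through Itgax at 22.2 CPM to H2-Ab1, which macrophages and B cells can express too, at 193 CPM. The 8 macrophage markers ranged there from Timd4 at 5.09 CPM to C1qa at 602 CPM, with Csf1r at 466 CPM. In bulk RNA, fewer cells of a type and less RNA per cell cannot be told apart.

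Tlr13 was the most abundant receptor transcript in the high experiment, and Tlr9 the least. Levels of different genes are compared in the authors' FPKM, a value per gene length. In the high NT libraries the bacterial RNA sensor Tlr13 stood at 122 and 123 FPKM, followed by the lipopolysaccharide receptor Tlr4 at 85.9 and 87.7 FPKM. Tlr8 and Tlr7, neighbouring genes for sensors of single-stranded RNA, came next at 65.4 and 66.1 FPKM and at 41.1 and 41.5 FPKM. Myd88 held the fifth position. It was followed by the lipopeptide receptors, with Tlr1 at 13.7 and 13.5 FPKM, Tlr6 at 10.6 and 10.7 FPKM and Tlr2 at 10.1 and 10.3 FPKM. The double-stranded RNA sensor Tlr3 stood at 6.41 and 6.57 FPKM. Tlr9, the receptor for unmethylated CpG DNA, reached only 1.36 and 1.54 FPKM. No neighbours in this order had overlapping values. With Satb1 siRNA the order stayed the same except that Tlr2 (11.2 and 10.9 FPKM) stood above Tlr1 (10.1 and 10.1 FPKM) and Tlr6 (8.88 and 9.01 FPKM).

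The order was different in the low experiment. Myd88 led in both of its libraries, at 123 FPKM with NT and 104 FPKM with Satb1 siRNA. In the low NT library Tlr2 (86.7 FPKM) and Tlr13 (84.5 FPKM) came next, followed by Tlr7 (71.2 FPKM), Tlr3 (57.3 FPKM), Tlr8 (50.2 FPKM) and Tlr9 (44.8 FPKM). Tlr1 (31.2 FPKM), Tlr4 (29.4 FPKM) and Tlr6 (13.6 FPKM) closed the list. In the low Satb1 siRNA library Tlr13 (95.1 FPKM) and Tlr9 (59.9 FPKM) were the highest receptors, ahead of Tlr7 (57.2 FPKM) and Tlr3 (56.5 FPKM). Tlr2 had gone to the seventh position there, at 41.8 FPKM. With 1 library per group, no spread between libraries can be set against these differences.

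**Figure D1:**
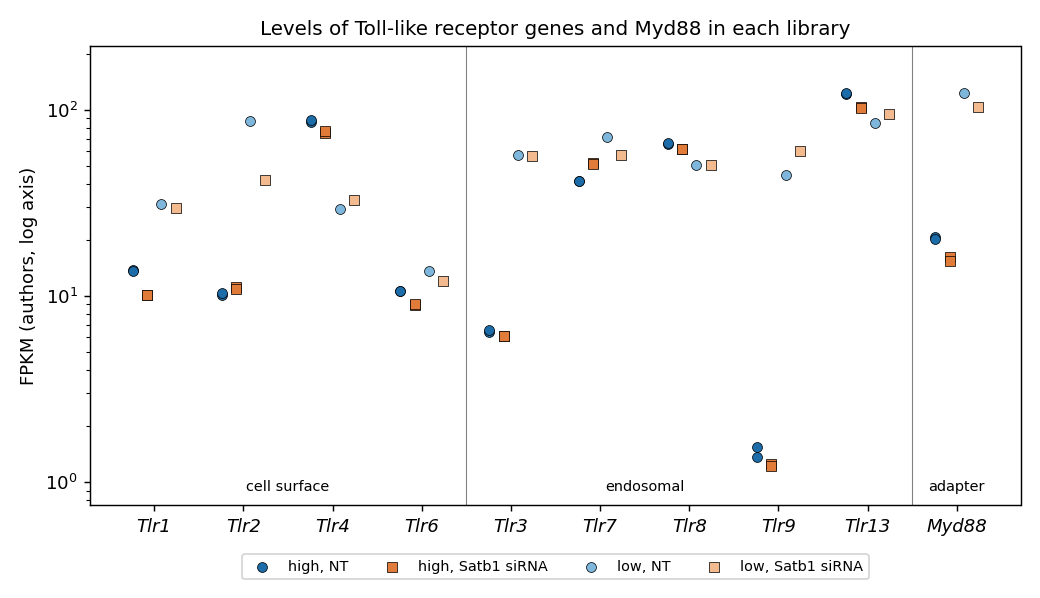
Authors' FPKM (log axis) of the 9 receptor genes and Myd88 in each of the 6 libraries, as circles for NT and squares for Satb1 siRNA, dark for the high and pale for the low experiment. The 2 libraries of a high group nearly coincide, and Tlr9, Tlr3, Tlr2 and Myd88 stand far higher in the low experiment, while Tlr4 stands lower.

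Some reads cannot be assigned to a single one of these genes. Tlr1 and Tlr6 lie next to each other in the genome and share long identical stretches. In the GENCODE transcripts, 15.3% of all windows of 50 bases of Tlr1 occur in Tlr6 as well, and 12.6% of those of Tlr6 occur in another gene. The longest common run has 229 bases, from base 1939 to 2167 of the Tlr1 transcript and from base 1652 to 1880 of the Tlr6 transcript, inside the longest reading frame of both. It is printed here because estimated counts of both genes depend on how reads from it were divided:
Tlr1 and Tlr6: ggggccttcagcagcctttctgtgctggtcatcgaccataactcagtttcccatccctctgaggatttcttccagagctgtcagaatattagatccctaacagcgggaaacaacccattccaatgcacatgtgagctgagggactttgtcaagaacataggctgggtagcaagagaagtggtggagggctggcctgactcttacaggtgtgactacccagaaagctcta
The values of Tlr1 and Tlr6 are uncertain to that extent. The Tlr3 and Myd88 exons overlap genes on the opposite strand (an antisense RNA over 381 bases of Tlr3 and Acaa1a over 290 bases of Myd88), and the sources used here do not say how strand was handled in counting. No window of Tlr2, Tlr4, Tlr7, Tlr8, Tlr9 or Tlr13 was found in another gene.

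Shares of the summed receptor FPKM are free of any scaling between libraries. The 4 surface receptors made up 33.8% and 33.9% of the sum of the 9 receptors in the high NT libraries and 34.3% in the low NT library. Inside that share the genes were exchanged, since Tlr4 gave 24.1% and 24.3% of the sum in the high NT libraries and Tlr2 only 2.84% and 2.86%, whereas in the low NT library Tlr4 gave 6.28% and Tlr2 18.5%. Tlr9 gave 0.382% and 0.427% in the high NT libraries and 9.55% in the low NT library. With Satb1 siRNA the surface share was 31.9% and 32.4% in the high experiment, below both NT libraries, and 26.7% in the low experiment. The share of Tlr7 went from 11.6% and 11.5% to 15.8% and 15.5% in the high experiment but from 15.2% to 13.1% in the low experiment. The partner ratio of Tlr2 to Tlr1 (FPKM), whose products form a heterodimer, was 0.738 and 0.763 with NT against 1.1 and 1.08 with Satb1 siRNA in the high experiment. In the low experiment the same ratio was 2.78 with NT and 1.42 with Satb1 siRNA, a difference in the opposite direction.

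**Figure D2:**
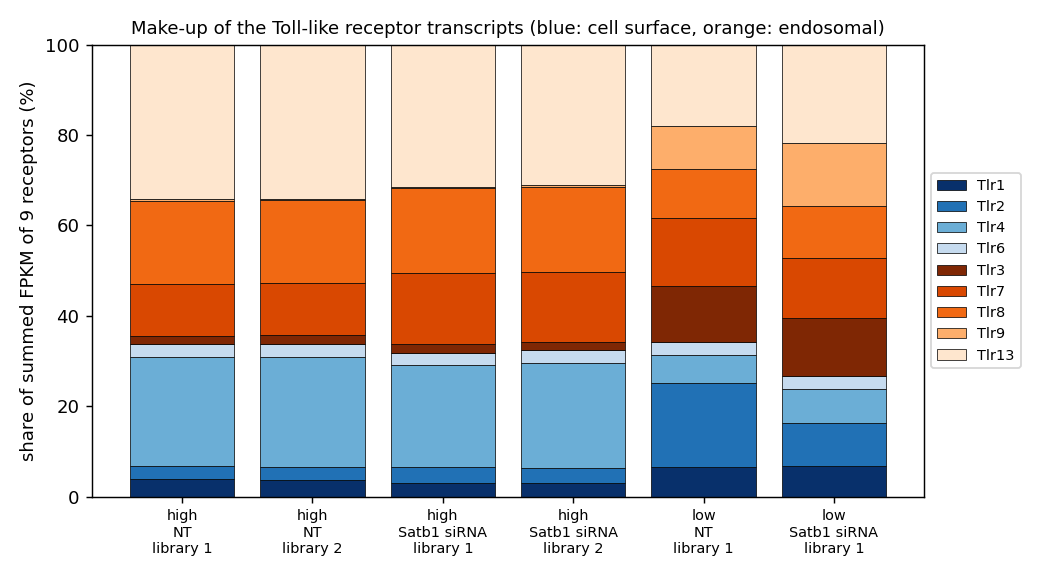
Share (%) of each of 9 receptors in their summed FPKM, 1 bar per library, with surface receptors in blue and endosomal receptors in orange. The blue part is near 34% in the NT libraries of both experiments, made up mostly of Tlr4 in the high experiment (24.1% and 24.3%) and mostly of Tlr2 in the low one (18.5%).

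In the high experiment, which asks what differs when Satb1 is strongly reduced, most receptor genes and Myd88 were slightly lower with Satb1 siRNA, and Tlr7 was higher. Of the 10 genes, 8 were called lower (adjusted p under 0.05 in edgeR's quasi-likelihood test) and 1 higher, all by less than 2-fold. Over all 20242 genes tested, 66.0% were called, 33.2% lower and 32.8% higher, because repeats were so alike. Among the 12962 genes whose mean log2 CPM was at least 1, as it was for all 10 members, 75.2% were called, 43.2% lower and 32.0% higher. The median log2 fold change was -0.28 over the members, 0.011 over all genes tested and -0.043 over those 12962 genes.

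Among the surface receptors, the lipopeptide receptor gene Tlr1 had the largest fall. It went from 39.5 and 39 CPM under NT to 29.4 and 29.1 CPM under Satb1 siRNA, with no overlap. Its log2 fold change was -0.48 (SE 0.033, edgeR adjusted p = 2.19e-21), and that of its neighbour Tlr6 was -0.33 (SE 0.038, edgeR adjusted p = 1.11e-11). Tlr4, the receptor for lipopolysaccharide, went from 346 and 353 CPM to 297 and 304 CPM, a log2 fold change of -0.27 (SE 0.012, edgeR adjusted p = 4.45e-17). Tlr2, which pairs with Tlr1 or Tlr6, was the 1 member that was not called. Its values were 29.2 and 29.7 CPM with NT against 32.3 and 31.4 CPM with Satb1 siRNA, a log2 fold change of 0.060 (SE 0.035, edgeR adjusted p = 0.127). With scaling by library size alone Tlr2 was called higher (log2 fold change 0.11, edgeR adjusted p = 3.32e-03).

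The endosomal receptors did not move as one. Tlr7 rose, from 158 and 159 CPM to 200 and 196 CPM (log2 fold change 0.26, SE 0.018, edgeR adjusted p = 7.45e-22), and both Satb1 siRNA libraries lay above both NT libraries. Its neighbour Tlr8 fell slightly, from 211 and 213 CPM to 198 and 199 CPM (log2 fold change -0.15, SE 0.016, edgeR adjusted p = 4.77e-13). The FPKM ratio of Tlr7 to Tlr8 accordingly went from 0.629 and 0.628 to 0.847 and 0.828. Tlr13 fell by 0.31 on the log2 scale (SE 0.0076, edgeR adjusted p = 3.49e-45), at 497 and 502 against 421 and 418 CPM. Tlr3 fell by 0.14 on the log2 scale (SE 0.037, edgeR adjusted p = 5.94e-04), a small difference between 28.0 and 28.7 CPM with NT and 26.5 and 26.9 CPM with Satb1 siRNA. Tlr9 rested on few counts, 322 and 386 with NT and 226 and 210 with Satb1 siRNA, or 4.75 and 5.42 against 4.37 and 4.28 CPM. Its log2 fold change of -0.29 (SE 0.093, edgeR adjusted p = 5.43e-03) was not called without the second NT library (-0.19, edgeR adjusted p = 0.15) or in DESeq2 (adjusted p = 0.0893).

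Myd88, the adapter shared by all of these receptors but Tlr3, fell from 40.3 and 39 CPM to 31.6 and 29.9 CPM. The log2 fold change was -0.42 (SE 0.034, edgeR adjusted p = 1.98e-18), a level 0.748 times that of NT. A further fit over 4 libraries, with repeats added together, had terms for experiment and siRNA. Its siRNA effect is taken over both experiments together, so it does not recheck the high experiment alone. In it 0 of the 10 members were called by edgeR (3 at an unadjusted p under 0.05) and 0 by DESeq2 (2 at an unadjusted p under 0.05). Over all genes that fit called only 6 lower and 0 higher in edgeR, and 135 lower and 85 higher in DESeq2. In that fit edgeR gave Myd88 -0.51 (adjusted p = 0.450) and Tlr1 -0.45 (adjusted p = 0.465), the direction of Tlr2 became -0.67 and that of Tlr7 -0.20. Markers of several cell types were called in the same libraries, as were 66.0% of all genes tested, 33.2% lower and 32.8% higher. Of 6 B cell markers, whose cells can express Tlr7 and Tlr9, 4 were called higher and 0 lower, and their sum was 18.4 and 18.0 CPM with NT against 35.4 and 33.5 CPM with Satb1 siRNA. Of the plasmacytoid dendritic cell markers, of cells that also express Tlr7 and Tlr9, Siglech, Tcf4 and Ly6d were called higher and Bst2 lower, with Siglech at 1.28 and 1.21 against 2.86 and 2.63 CPM and Klk1 at 0 in both NT libraries. Of the T cell markers 4 of 6 were called higher and 0 lower, and of the neutrophil markers 3 of 5 higher and 1 lower. The 8 dendritic cell markers were mixed, with 4 called higher (Flt3, Zbtb46, Dpp4 and Clec9a) and 4 lower (Itgax, H2-Ab1, Ccr7 and Xcr1). Their sum was 236 CPM in each NT library against 140 and 136 CPM with Satb1 siRNA. Most of it was H2-Ab1 (193 and 193 against 111 and 109 CPM). Itgax had the largest log2 fold change of the list in size, -1.95 (22.2 and 22.1 against 6.25 and 5.63 CPM). Of 8 macrophage markers 5 were called higher and 2 lower, and their sum was 1897 and 1889 against 1893 and 1879 CPM. The part of these cell types in the members' values was not tested.

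Between the low libraries, Tlr2 was the member with the largest difference, at 253 CPM with NT siRNA and 122 CPM with Satb1 siRNA. The scaling matters here, since the median log2 ratio over 13700 genes was -0.060 with TMM scaling over 6 libraries and 0.29 with library size alone. Log2 ratios of the members are therefore given relative to the median of all genes under TMM. On that scale Tlr2 stood at -1.35, followed by Tlr7 at -0.62 (274 against 220 CPM), Myd88 at -0.55 (239 against 201 CPM) and Tlr6 at -0.48 (35.5 against 31.2 CPM). Tlr1 stood at -0.37, Tlr3 at -0.31 and Tlr8 at -0.28. Tlr4 (-0.14) and Tlr13 (-0.13) were close to the median gene. Tlr9 alone was above it, at 0.12, with 159 CPM for NT and 213 CPM for Satb1 siRNA. Thus 9 of 10 members had a TMM-scaled ratio below 1, against 55.4% of all genes, but 6 of 10 with library size alone, which put Tlr4, Tlr8 and Tlr13 above 1. Only Tlr2 was at least 2-fold lower (ratio 0.376, 95% counting interval 0.360 to 0.393), as were 3.93% of all genes. With 1 library per group this difference has no replicate check.

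Other cell markers differed between the low libraries as well. The 7 tumour, epithelial and mesothelial markers summed to 119 CPM with NT and 547 CPM with Satb1 siRNA, the 8 dendritic cell markers to 1496 and 2083 CPM, and the 8 macrophage markers to 4087 and 3255 CPM. The 5 neutrophil markers, of cells that also express Tlr2, summed to 383 and 234 CPM, and none of the markers of these lists was at 0 in either library. These sums are without TMM scaling. With it, the dendritic cell sums were 2121 and 2307 and the macrophage sums 5794 and 3605. The neutrophil sums were then 543 and 259, and those of the tumour, epithelial and mesothelial markers 168 and 606. Of the 8 macrophage markers, 6 had a TMM-scaled ratio below 1. Gata6 went the other way, from 8.03 to 35.7 CPM, and so did Vsig4, from 5.36 to 10.3 CPM. The part of these cells in the ratios of Tlr2 and the other members was not tested.

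The effects of the 2 experiments were also set against each other, as the log2 effect in the low minus that in the high experiment. The edgeR interaction over 4 group means measures this difference against the spread of the near-identical repeats alone, so it compares these libraries, and a difference between conditions was not tested. On that basis 8 of 10 members were called, as were 39.7% of all genes tested. The difference was -1.46 for Tlr2 and -0.93 for Tlr7, whose effect was above 0 in the high and below 0 in the low experiment. It was 0.36 for Tlr9 and 0.12 for Tlr13, and -0.21 for Tlr6, none of which DESeq2 called (adjusted p = 0.255, 0.751 and 0.274). For Tlr1 (0.058) and Tlr4 (0.074) no difference was called. Tlr3, Tlr6, Tlr8 and Myd88 were called at -0.18 to -0.23, but with library size alone these became positive, as that scaling moves the median difference of all genes from 0.040 to 0.34. Relative to that median, Tlr2 stood at -1.5 and Tlr7 at -0.97 under either scaling. Tlr3 stood at -0.27, Tlr6 at -0.25, Tlr8 at -0.23 and Myd88 at -0.22, also under either scaling. The scaling moves all genes by nearly the same amount, so this sameness was fixed in advance and checks no gene.

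Between the control libraries of the experiments, with TMM scaling, 8 members had a larger log2 ratio in size than between the siRNA groups of either experiment, and Tlr8 and Tlr13 did not. Tlr9 was 48.6 times as high in the low NT library as in the high NT libraries (TMM scaling, 95% counting interval 44.9 to 52.7), where it had 159 CPM in place of 4.75 and 5.42 CPM. Tlr3, the double-stranded RNA sensor, was 13.6 times as high (249 against 28.0 and 28.7 CPM) and Tlr2 13.4 times (253 against 29.2 and 29.7 CPM). Myd88 followed at 9.38 times, with 239 against 40.3 and 39 CPM. Tlr1 (3.35 times) and Tlr7 (2.68 times) were also at least 2-fold higher, and Tlr6 reached 1.99 times. Tlr8 (1.19 times) and Tlr13 (1.08 times) were close to the median of all genes, and with library size alone both were lower there (log2 ratios -0.38 and -0.52). Tlr4 was the 1 member with a ratio below 1, at 116 CPM against 346 and 353 CPM (ratio 0.516). In all, 6 of 10 members were at least 2-fold higher in the low NT library, against 25.8% of 13700 genes, and 0 were at least 2-fold lower, against 22.6% (48.4% of genes in either direction). With library size alone these counts were 5 and 1. No test was made, as there is 1 low NT library, and the experiment cannot be told apart from anything else that differed between these libraries. The low NT library also serves as the control of the low experiment above, so that the high Tlr2 level in it enters both comparisons.

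**Figure D3:**
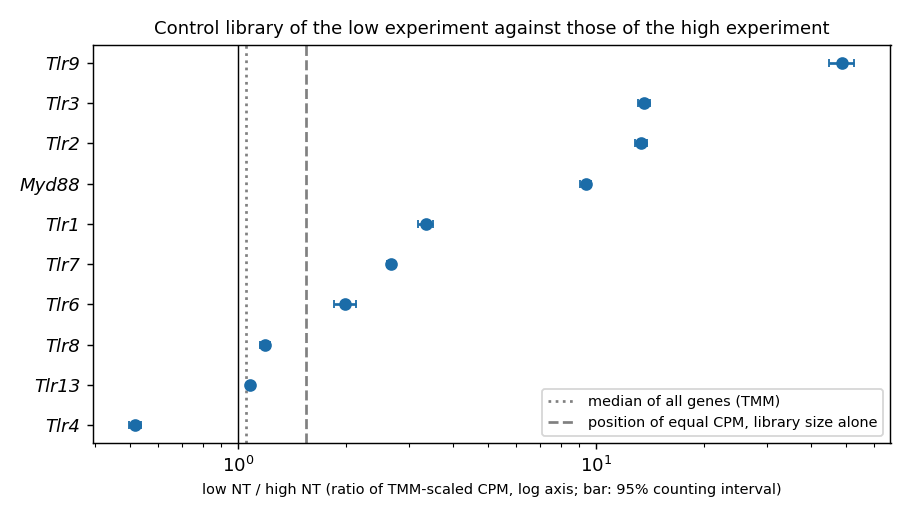
Ratio of TMM-scaled CPM in the low NT library to the high NT libraries for each member (log axis), with 95% counting intervals; the dotted line is the median of all genes. Tlr9 is 48.6 times as high and Tlr4 0.516 times, and Tlr8 and Tlr13 lie between the line of no difference and the dashed line of equal CPM with library size alone.

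Cell markers differed between these libraries as well, in both directions. The 5 monocyte markers summed to 1661 CPM in the low NT library and to 1507 and 1513 CPM in the high NT libraries. Among them Ly6c2 stood at 150 against 0.428 and 0.337 CPM and Fn1 at 777 against 1098 and 1104 CPM. The 6 T cell markers summed to 25.6 against 42.5 and 40.4 CPM. Of these, Cd3d stood at 3.03 against 36.4 and 33.9 CPM, and each of the others was higher in the low NT library. The 8 dendritic cell markers summed to 1496 CPM in the low NT library and to 236 CPM in each high NT library, the 5 plasmacytoid dendritic cell markers, of cells that express Tlr7 and Tlr9, to 781 against 229 and 231 CPM, and the 6 B cell markers to 23.9 against 18.4 and 18.0 CPM. The 5 neutrophil markers, of cells that express Tlr2, summed to 383 against 102 and 102 CPM, of which Csf3r gave 194 against 32.4 and 32.9 CPM. S100a8 stood at 62.1 against 4.32 and 4.03 CPM, while Cxcr2 alone went the other way, at 12.3 against 41.3 and 40.8 CPM. The 8 macrophage markers summed to 4087 against 1897 and 1889 CPM, and the 7 tumour, epithelial and mesothelial markers to 119 against 705 and 706 CPM. These sums are without TMM scaling. With it each sum differed in the same direction, and that of the B cell markers was 33.8 against 16.7 and 16.5. The plasmacytoid sum was mostly Bst2 in the low NT library (675 CPM), an interferon response gene, while Siglech stood at 2.15 CPM and Klk1 was at 0 in both high NT libraries. The part of these cell types in the receptor levels was not tested. Cd180, a receptor-like relative of the family, and Tlr11 and Tlr12, receptors for profilin, differed in the same direction as Tlr3. Cd180 stood at 491 CPM against 55.6 and 57.7 CPM, Tlr11 at 12.7 against 1.53 and 1.35 CPM, and Tlr12 at 3.07 against 0.443 and 0.631 CPM. Tlr5, the flagellin receptor, stood at 6.73 against 11.1 and 11 CPM, a TMM-scaled ratio of 0.947 (95% counting interval 0.808 to 1.1).

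The promoters of the 4 members that were highest in the low NT library relative to the high ones are shown with that of Tlr13, which hardly differed, so that the letters before their start sites can be compared. They are the 250 bases before the annotated start from RefSeq (GRCm38.p6), written from the gene's own strand. The windows are chr9:106222348-106222597 on the plus strand for Tlr9, chr8:45410381-45410630 on the minus strand for Tlr3, chr3:83841609-83841858 on the minus strand for Tlr2, chr9:119340019-119340268 on the minus strand for Myd88 and chrX:106143025-106143274 on the plus strand for Tlr13. Capitals mark matches on either strand to the PU.1 core (GAGGAA), the interferon-stimulated response element (GAAA and GAAA with any 2 bases between), the AP-1 site (TGANTCA) or the NF-kappaB consensus:
Tlr9: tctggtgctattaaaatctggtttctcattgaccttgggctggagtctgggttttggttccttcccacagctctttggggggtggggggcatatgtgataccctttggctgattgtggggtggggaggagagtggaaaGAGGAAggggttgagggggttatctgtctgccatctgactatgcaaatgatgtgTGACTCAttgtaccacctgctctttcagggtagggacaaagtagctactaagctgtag
Tlr3: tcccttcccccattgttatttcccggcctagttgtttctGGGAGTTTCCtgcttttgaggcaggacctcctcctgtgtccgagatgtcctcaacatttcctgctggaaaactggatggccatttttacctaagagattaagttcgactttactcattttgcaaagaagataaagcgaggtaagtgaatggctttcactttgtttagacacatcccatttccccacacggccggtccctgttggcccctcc
Tlr2: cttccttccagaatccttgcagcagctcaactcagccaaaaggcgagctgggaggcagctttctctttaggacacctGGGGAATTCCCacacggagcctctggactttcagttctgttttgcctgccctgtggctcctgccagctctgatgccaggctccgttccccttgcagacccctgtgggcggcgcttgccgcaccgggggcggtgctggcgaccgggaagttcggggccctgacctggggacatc
Myd88: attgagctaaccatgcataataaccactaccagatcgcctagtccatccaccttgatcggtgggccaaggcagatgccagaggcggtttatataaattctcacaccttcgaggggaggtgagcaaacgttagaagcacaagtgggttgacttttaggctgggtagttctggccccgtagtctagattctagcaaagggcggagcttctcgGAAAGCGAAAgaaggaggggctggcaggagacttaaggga
Tlr13: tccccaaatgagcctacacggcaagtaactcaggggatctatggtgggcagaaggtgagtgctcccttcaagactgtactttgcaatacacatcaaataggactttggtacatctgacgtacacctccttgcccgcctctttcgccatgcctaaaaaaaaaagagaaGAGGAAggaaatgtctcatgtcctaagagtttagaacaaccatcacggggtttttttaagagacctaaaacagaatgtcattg
Tlr9 holds a PU.1 core beginning 112 bases and an AP-1 site beginning 58 bases before the start. Tlr3 holds an NF-kappaB match beginning 211 bases before the start, and Tlr2 holds matches that begin 173 and 172 bases before it and overlap each other. Myd88 holds an interferon-stimulated response element beginning 40 bases before the start, and Tlr13 a PU.1 core at 83 bases. Of 32851 promoter windows of that length in the table, 23.3% hold the PU.1 core, 2.98% the response element, 6.75% the AP-1 site and 3.90% the NF-kappaB consensus. Tlr2 and Tlr3 thus share the NF-kappaB match, Tlr9 and Tlr13 the PU.1 core, and no motif is in all of the 4 promoters of the genes that differed most. The table matched 8 of the 10 members, all but Tlr4 and Tlr7. The cyclic AMP response element TGACGTCA, in 1.55% of windows, was in none of the 10 windows of these 8 members.

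The other genes of the pathway were grouped by role. In the high experiment 38 of 63 genes were called lower, 13 higher and 12 not, against 33.2% lower and 32.8% higher over all genes and 43.2% and 32.0% over genes whose mean log2 CPM was at least 1. Their median log2 fold change was -0.17. In the fit with repeats added together, which takes both experiments together, edgeR called 1 of the pathway genes lower and 0 higher, and DESeq2 12 and 0. Over all genes that fit called 6 lower and 0 higher in edgeR, and 135 lower and 85 higher in DESeq2. The lowest median was that of the target cytokines, -1.14, of which 9 of 10 were called lower. On the log2 scale Tnf fell by 2.06, with 32.4 and 31.5 CPM under NT and 8.47 and 7.45 CPM under Satb1 siRNA. The interferon beta gene Ifnb1 fell by 2.64, the chemokine genes Ccl5 by 2.48 and Cxcl10 by 1.31, the prostaglandin synthase gene Ptgs2 by 1.2 and the interleukin gene Il1b by 1.08. The 1 higher gene, Il12a, had 0 counts in both NT libraries and 0.387 and 0.184 CPM with Satb1 siRNA, at least 13.3-fold higher when 3 counts are allowed over the NT group, and its value does not alter the list's median.

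Upstream of these targets the differences were smaller and went both ways. The shares to set beside the counts are 43.2% lower and 32.0% higher, over genes whose mean log2 CPM was at least 1. Of 9 genes for ligand handling and receptor chaperones, 7 were called lower, 1 higher and 1 not (median -0.16). Cd14, the coreceptor that hands lipopolysaccharide to Tlr4, had a log2 fold change of -0.74 (114 and 111 against 71 and 69 CPM), and Unc93b1, the chaperone that carries endosomal receptors to their compartment, one of -0.30. Of 4 further adapters, 2 were called lower and 2 higher. Ticam1, the adapter of Tlr3, stood at -0.67 and Tirap, which links Myd88 to surface receptors, at -0.26, while Ticam2, which links Ticam1 to Tlr4, was called higher at 0.21. Of 15 kinases and ubiquitin ligases, 7 were called lower, 3 higher and 5 not (median -0.041, from -0.34 to 0.20), among them the kinase gene Tbk1 at -0.25 and Ikbkg at -0.20.

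Transcription factor genes of the pathway were mostly lower, while its inhibitors went both ways. Among all genes whose mean log2 CPM was at least 1, 43.2% were called lower and 32.0% higher. Of 8 transcription factor genes, 7 were called lower and 1 higher (median -0.34). Irf7, the interferon regulatory factor downstream of Tlr7 and Tlr9, had the largest fall (-1.21, 176 and 178 against 78.6 and 80.4 CPM), and Irf5 stood at -0.46. The 1 higher gene was Rel (0.15). Of 9 inhibitor genes, 5 were called lower, 3 higher and 1 not (median -0.34), with the NF-kappaB feedback genes Tnfaip3 at -1.08 and Nfkbia at -0.48. The lowest value of any pathway gene was that of the cytokine signalling inhibitor Socs1 (-2.7), at 0.9 and 0.982 against 0.135 and 0.163 CPM. Of 4 other receptors that use Myd88, those for interleukin 18 and interleukin 1, Il18r1 (1.05) and Il1r1 (0.45) were called higher and 2 were not called. Of Tlr5, Tlr11, Tlr12 and Cd180, Cd180 was called lower (-0.11) and the other 3 were not, Tlr11 having 0.14 (edgeR adjusted p = 0.432).

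**Figure D4:**
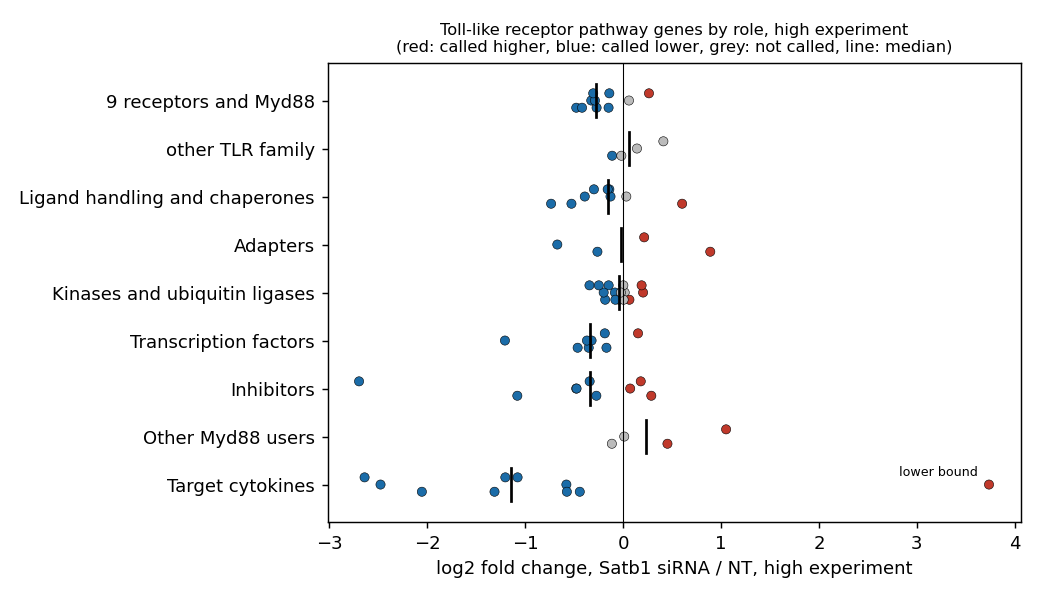
Log2 fold change of Satb1 siRNA over NT in the high experiment for each gene tested, 1 row per role, red where called higher, blue where called lower and grey where not called, with the median as a line. The target cytokines have the lowest median (-1.14), and the receptors and Myd88 lie mostly between -0.48 and 0; Il12a is drawn at its lower bound.

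Between the low libraries 49 of the 61 pathway genes measured there had a ratio below 1, against 55.4% of all genes, with a median log2 ratio of -0.39 where all genes had -0.060. At least 2-fold lower were 12 of them, against 3.93% of all genes, and at least 2-fold higher 3, against 9.26%. Cd14, at 370 CPM with NT and 168 CPM with Satb1 siRNA, had a TMM-scaled ratio of 0.355 beside 0.376 for Tlr2, and Unc93b1 went from 717 to 632 CPM. Tnfaip3 went from 341 to 153 CPM and Nfkbia from 370 to 172 CPM. In the low NT library, relative to the high NT libraries, 38 of the 61 genes were at least 2-fold higher, against 25.8% of all genes, and 1 was at least 2-fold lower. Irf7 was the most abundant of the transcription factor genes there, at 2395 CPM against 176 and 178 CPM.

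The genes whose pattern over the 4 groups was most like each member were found by the Euclidean distance between their centred mean log2 CPM, over 12178 genes whose mean was at least 1. For Tlr3 the nearest gene was Cd180 (distance 0.082), the receptor-like relative of the family named above. For Tlr7 the second nearest was the adapter gene Ticam2 (0.11), and for Tlr2 the nearest were IL15ra (0.20) and Il1r2 (0.27), receptor genes for interleukin 15 and interleukin 1. Tlr1 lay nearest to Pydc4 (0.015) and Myd88 nearest to Agpat1 (0.063). Tlr13 lay nearest to Tor1b (0.026) and Tlr8 to Dbr1 (0.031). Tlr13 and Tlr8 lay closer to each other (0.16) than any other 2 members, and no member lay near Tlr9, whose nearest member was Tlr3 at 2.15. With 4 group means, of which 2 are single libraries, these distances are descriptions only.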

How the data were processed

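RNA was isolated with Trizol and made into TruSeq Stranded Total RNA libraries, per the labels' protocols. Per the file headers, the authors deposited counts and FPKM values of 27634 gene symbols in 6 libraries. The submitters' processing notes name RSEM 1.2.12, DESeq2 and build mm9, so the authors' counts were treated as estimated counts. They were whole numbers, and rounding changed nothing. Estimated counts divide reads that fit several genes. The sources used here do not give the aligner, filters or strand setting. Totals of 24553454 to 71272720 counts allow 0.0421 to 0.122 CPM where a gene has 0 counts (3 counts). Intervals cover counting error only.

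The high experiment (4 libraries) was tested with edgeR 4.0.16 in R 4.3.3 (quasi-likelihood F-tests, robust, TMM scaling, filterByExpr, two-sided, Benjamini-Hochberg adjustment over all genes, threshold 0.05), and the interaction over all 6 libraries, which has no residual degrees of freedom among separate samples. Log2 ratios of single libraries use a prior count of 2 after TMM scaling and genes whose mean log2 CPM was at least 0, with exact 95% binomial intervals. Alternatives used DESeq2 1.42.0, library size, no filter, a replicate block, all 6 libraries, left-out libraries and summed repeats; summed repeats in DESeq2 were added after seeing the data. SE values of the high experiment are the size of the log2 fold change divided by the square root of the edgeR F statistic. Scripts were tested on simulated data. Deviations of same-numbered replicates from their group means correlated at -0.027. With 2 near-identical libraries per group this value cannot show or exclude a pairing, and the main test treated the libraries as unpaired. The members and lists were chosen with earlier results of these data known. The pathway genes to name were the 2 with the smallest p in each list and those changed at least 2-fold, if their mean log2 CPM was at least 0; Il12a, Rel, Socs1, Ticam2, Tlr5, Tlr12 and the low experiment examples were chosen after their values were seen. Of 123 list entries, 117 matched the file and 6 were not analysed here. Windows of 50 bases came from GENCODE M21 transcripts (GRCm38), motifs from 250 bases of RefSeq promoters.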

Additional observations from a re-analysis of the deposited data

Results flagged for a closer look

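For 8 genes the log2 effect of Satb1 siRNA in the low experiment minus that in the high experiment was called in the edgeR interaction, as it was for 39.7% of all genes tested. The spread there comes from near-identical repeats alone, so the calls compare these libraries, and a difference between conditions was not tested. The values were -1.46 for Tlr2 and -0.934 for Tlr7, then -0.228 for Tlr3, -0.209 for Tlr6, -0.191 for Tlr8 and -0.181 for Myd88. The values for Tlr9 and Tlr13 were positive, at 0.357 and 0.124. DESeq2 did not call Tlr6 (adjusted p = 0.274), Tlr9 (adjusted p = 0.255) or Tlr13 (0.031, adjusted p = 0.751).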

How the results depend on the processing

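In the high experiment, the count of 8 members called lower was 7 to 8 and that of 1 called higher was 1 to 1 when each library was left out in turn, and 7 and 1 with DESeq2. With library size alone 2 members were called higher. With repeats summed, edgeR and DESeq2 called 0 members lower and 0 higher. Of all genes, that fit called 6 lower and 0 higher in edgeR, and 135 lower and 85 higher in DESeq2. Of the pathway genes, summed repeats left 1 called lower and 0 higher in edgeR and 12 and 0 in DESeq2, and leaving out a library gave 36 to 38 lower and 8 to 12 higher. The low end of the latter, 8 in place of 13, came without the first Satb1 siRNA library. In that summed fit Tlr2 went to -0.67 (DESeq2 -0.69) and Tlr7 to -0.20 (DESeq2 -0.22); it mixes both experiments by construction. The replicate block gave 8 lower and 1 higher and changed no call of a member. With library size alone the low experiment ratio reversed for Tlr4 (0.15), Tlr8 (0.011) and Tlr13 (0.17), and the control ratio for Tlr8 (-0.38) and Tlr13 (-0.52), a shift shared by all genes. Members at least 2-fold lower in the low NT library were then 1, Tlr4 (-1.59). The interaction called 8 to 9 members without single libraries and 5 in DESeq2. It reversed with library size alone for Tlr3 (0.068), Tlr6 (0.088), Tlr8 (0.11) and Myd88 (0.11), and in DESeq2 for Tlr1 (-0.035) and Tlr4 (-0.020), neither called. Depth limits Tlr9 in the high experiment, with 210 to 386 counts.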
